A study of Mus musculus with 10 samples.

Results

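The regions annotated to *Rorb* were 23 of the 108253 peaks quantified in retinal explants, chosen as every row that the annotation assigns to this gene and ordered along chromosome 19. The set is as large as the one the study merged from H3K18La peaks of uncultured retina at several postnatal ages. The table does not say in which libraries its peaks were called. For its principal component analysis of explants the study names merged consensus peaks of both marks, without their number. If the set is the one from uncultured retina, regions marked only in explants or only by H3K27Ac may be missing from it. That bears on every share of all peaks and every value per read in peaks below. Of the 23 *Rorb* peaks, 2 were promoter peaks, 19 lay in introns, 1 in the 3' UTR and 1 was intergenic. CUT&Tag, in which an antibody tethers a transposase to chromatin that carries a histone mark, was performed on retinas of wild-type C57BL/6J mice at postnatal day 28, kept as explants for 48 hours in Neurobasal-A medium with 5 mM or 25 mM glucose. The 4 groups were H3K18La (lactylation of lysine 18 of histone H3) at 5 mM and at 25 mM, with 3 libraries each, and H3K27Ac (acetylation of lysine 27) at 5 mM and at 25 mM, with 2 libraries each. All 10 libraries carry the same batch number, and each assay used 500000 cells of the whole retina. The study calls its replicates biological without saying which came from separate animals, so p-values measure the spread between these libraries. In the main linear model (limma) all 4 groups share 1 spread per peak. The scatter of H3K18La thus enters the H3K27Ac p-values of single peaks, and a peak that does not pass need not vary in H3K27Ac. One protocol text in the labels names an antibody to H3K9me3 and a pA-MNase, whereas the sample titles and the study's methods give H3K27Ac and CUT&Tag, and the titles were followed. *Rorb* was selected on its H3K18La RPKM at 5 and 25 mM in these libraries. Its H3K18La change with glucose is therefore given below as a description with no test.

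*Rorb* encodes RORβ, an orphan nuclear receptor that binds DNA as a monomer at a half-site preceded by an A/T-rich stretch. In the developing retina RORβ acts upstream of *Nrl* in the choice of the rod fate, works with CRX on the S-opsin gene *Opn1sw*, and is needed for horizontal and amacrine cells. The gene has alternative promoters whose products differ at the amino-terminal end, and the isoform from the downstream one is the form known from retina and pineal gland. Lactylation and acetylation of histone H3 lysines are both found at active promoters and enhancers, and lactylation draws on lactate, the product of glycolysis.

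On GRCm38 the gene runs from 18930605 to 19111196 on the minus strand of chromosome 19, over 180.6 kb. The upstream start lies at 19111196 and the internal start at 19001117, 110.1 kb further along the direction of transcription. Transcript variant 1 of RefSeq begins at the upstream start, has only 7 coding bases in its first coding exon and encodes 459 residues. Variant 2 begins at the internal start, has 40 coding bases in its first coding exon and encodes 470 residues. Variant 3 also begins there but has its first coding base in a later exon and encodes 385 residues. The upstream promoter peak, chr19:19109804-19111766, spans 1963 bases and the internal promoter peak, chr19:19000901-19001409, spans 509 bases. Both cover 5' UTR and the first coding bases of their transcript. The median promoter peak in the whole set spans 1120 bases.

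The promoters differed in sequence, and the sequences of both are shown because their values are compared below. Whether their glucose changes differ, and any link to sequence, was not tested. Each runs from 250 bases before to 50 bases after the start (RefSeq, GRCm38, minus strand, 5′ to 3′), and capitals mark the motifs searched on either strand.
Upstream promoter, chr19:19111147-19111446: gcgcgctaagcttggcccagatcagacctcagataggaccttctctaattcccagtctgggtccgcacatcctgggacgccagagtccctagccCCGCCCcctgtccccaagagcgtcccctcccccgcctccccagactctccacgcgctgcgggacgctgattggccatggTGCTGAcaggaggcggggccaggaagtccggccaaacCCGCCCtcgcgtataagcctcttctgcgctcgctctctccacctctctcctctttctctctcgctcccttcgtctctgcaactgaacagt
Internal promoter, chr19:19001068-19001367: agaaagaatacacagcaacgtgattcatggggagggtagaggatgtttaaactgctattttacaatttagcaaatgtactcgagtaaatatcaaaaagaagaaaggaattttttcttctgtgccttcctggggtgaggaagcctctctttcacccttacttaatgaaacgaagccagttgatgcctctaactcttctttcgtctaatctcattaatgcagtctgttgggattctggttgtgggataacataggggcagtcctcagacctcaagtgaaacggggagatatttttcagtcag
The motifs were TAATCC (the core bound by CRX and OTX2), TGCTGA (a half-site of NRL), GGGCGG (bound by SP and KLF factors), AGGTCA (the half-site of ROR receptors), and the E-boxes CAGATG and CAGCTG. No motif contains another. The upstream window had 63.7% GC and 20 CpG dinucleotides, and held GGGCGG at 2 places and TGCTGA at 1. GGGCGG occurred in 35.7% of 32851 mouse promoters of the same length and TGCTGA in 19.5%. The internal window had 41.0% GC and 5 CpG dinucleotides and held none of the 6 motifs. Among the 32851 promoters, 12.8% had a GC content at or below that of the internal one and 79.7% at or below that of the upstream one. The promoter peaks showed the same order, with 54.3% GC and 44.8 CpG per kb in the upstream peak and 43.2% GC and 23.6 CpG per kb in the internal peak.

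The intronic peaks on either side of the internal start are shown for their central 300 bases, since both rose with glucose in the values below.
Intronic peak before the internal start, chr19:19004323-19004622: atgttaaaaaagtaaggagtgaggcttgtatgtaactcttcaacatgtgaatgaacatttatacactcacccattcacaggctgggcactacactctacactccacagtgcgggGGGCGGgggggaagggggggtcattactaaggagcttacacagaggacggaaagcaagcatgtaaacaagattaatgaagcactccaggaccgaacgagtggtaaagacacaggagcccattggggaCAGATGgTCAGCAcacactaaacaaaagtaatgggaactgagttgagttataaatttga
Intronic peak after the internal start, chr19:18998951-18999250: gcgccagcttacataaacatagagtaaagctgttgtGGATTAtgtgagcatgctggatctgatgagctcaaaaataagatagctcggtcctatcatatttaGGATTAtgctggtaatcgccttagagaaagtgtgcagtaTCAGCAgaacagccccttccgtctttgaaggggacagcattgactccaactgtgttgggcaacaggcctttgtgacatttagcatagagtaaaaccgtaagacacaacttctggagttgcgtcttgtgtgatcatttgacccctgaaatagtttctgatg
The window before the internal start held the SP and KLF motif, the E-box CAGATG and the NRL half-site once each. The window after it held the CRX and OTX2 core at 2 places and the NRL half-site at 1. In central windows of all 108253 peaks, the CRX and OTX2 core occurred in 11.5%, the NRL half-site in 24.8%, the SP and KLF motif in 11.8% and the ROR half-site in 21.1%. Over the 23 *Rorb* peaks these were in 2 windows (8.70%), 6 (26.1%), 2 (8.70%) and 5 (21.7%). The first E-box was in 7 *Rorb* windows (30.4%) and 25.2% of all, and the second in 2 (8.70%) and 20.5% of all.

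Library depth set the precision. RPKM values were whole multiples of 1 read in every library, with denominators from 1358008 to 7424470 reads. For H3K18La, reads in peaks made up 11.8% to 12.0% of the denominator at 5 mM and 31.2% to 35.0% at 25 mM. For H3K27Ac they made up 21.1% and 31.5% at 5 mM, and 69.5% and 56.5% at 25 mM. A shift of this kind moves RPKM at most peaks, so values per read in peaks are given beside the main ones, and its part in the results was otherwise not tested. As a check of the tissue, all 5 rod markers used (*Gnat1*, *Pde6b*, *Nrl*, *Nr2e3* and *Sag*) had promoter peaks. Their summed RPKM ran from 8.59 to 10.4 (H3K18La) and from 36.4 to 67.8 (H3K27Ac) at 5 mM, against 42.8 to 101.0 and 170.8 to 305.9 at 25 mM. Summed promoter RPKM was at most 12.9 at 5 mM and 31.5 at 25 mM for 3 of 4 Müller glia markers found, and 2.34 and 16.8 for 2 of 2 bipolar cell markers. It was at most 2.33 and 4.20 for 1 of 4 amacrine and horizontal cell markers, 1.94 and 2.57 for 1 of 4 pigment epithelium markers, and 1.66 and 3.87 for 1 of 4 microglia markers. For 2 of 3 endothelium markers, *Cldn5* and *Cdh5*, it was at most 5.80 at 5 mM and 3.28 at 25 mM. Their log2 fold changes were -1.80 and 0.36 in H3K18La and -1.25 and -0.60 in H3K27Ac, with overlap between glucose levels for each. The part of such shifts in the results was not tested. In whole retina, fewer cells of a type and less of a mark per cell cannot be told apart.

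Over the whole locus both marks were higher at 25 mM when counted per read of the denominator, and differed far less when counted per read in peaks. The 23 peaks cover 16.0 kb. In H3K18La at 5 mM they held 40, 117 and 27 reads, or 19.0, 22.6 and 19.9 per 1000000 reads of the denominator (RPM). At 25 mM they held 157, 252 and 176 reads, or 79.9, 62.0 and 59.3 RPM. Every H3K18La library at 25 mM was thus above every one at 5 mM, and the ratio of the means was 3.28. The median over the 2454 genes with at least 10 peaks was 2.45. *Rorb* was chosen on these H3K18La values, so its place among the genes is not read. The H3K27Ac libraries held 237 and 488 reads at 5 mM, or 54.8 and 78.6 RPM, and 1327 and 1149 reads at 25 mM, or 184.5 and 154.8 RPM. The means were 66.7 ± 16.8 and 169.6 ± 21.0 RPM (SD, n = 2 each), a ratio of 2.54 where the median gene had 1.90, and the groups did not overlap. An exact two-sided permutation test gave p = 0.333, the smallest that 2 libraries against 2 allow, and 0.333 after adjustment over the 2 exact tests made here. Per 100000 reads in peaks, the locus held 25.9 and 24.9 reads in H3K27Ac at 5 mM and 26.6 and 27.4 at 25 mM. In H3K18La it held 15.8, 19.0 and 16.8 at 5 mM and 22.8, 19.6 and 19.0 at 25 mM. On this scale the lowest library at 25 mM lay just above the highest at 5 mM in both marks, and the means differed by 1.55 reads in H3K27Ac.

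**Figure D1:**
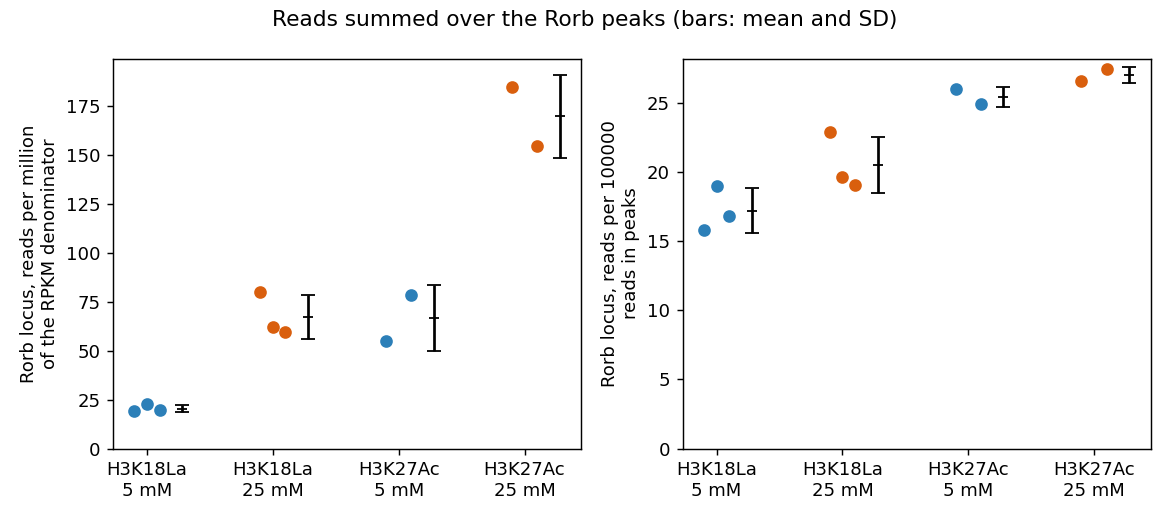
Reads summed over the 23 *Rorb* peaks in each library (points), per 1000000 reads of the RPKM denominator on the left and per 100000 reads in peaks on the right, with the mean and SD of each group (3 libraries per H3K18La group, 2 per H3K27Ac group). On the left the 25 mM H3K27Ac libraries sit at 154.8 and 184.5 against 54.8 and 78.6 at 5 mM, and on the right at 26.6 and 27.4 against 24.9 and 25.9.

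The signal was not spread evenly along the gene. The median group mean of the 6 intronic peaks after the internal start was compared with that of the 13 between the starts. It was higher in H3K27Ac at 5 mM (6.65 against 2.13 RPKM) and 25 mM (17.1 against 4.38), and in H3K18La at 25 mM (4.98 against 2.58). In H3K18La at 5 mM, where counts were low, it was not (0.975 against 0.990). The ranges overlapped. In H3K27Ac at 25 mM they ran from 2.31 to 26.8 RPKM after the internal start and from 2.25 to 34.5 between the starts. The strongest *Rorb* peak outside promoters in both marks was the intronic one before the internal start, chr19:19004209-19004738. It lies in the first intron of the long transcript, 3.09 kb from the internal start. Distances of peaks in the text are those of the nearer edge. Its H3K18La RPKM was 4.47, 5.46 and 5.56 at 5 mM and 25.0, 16.2 and 17.2 at 25 mM. Its H3K27Ac RPKM was 10.0 and 17.6 at 5 mM and 42.8 and 26.2 at 25 mM. By group mean it stood above 98.3% to 99.2% of all peaks in each of the 4 groups. The next highest *Rorb* peak in any group stood above 96.7%.

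**Figure D2:**
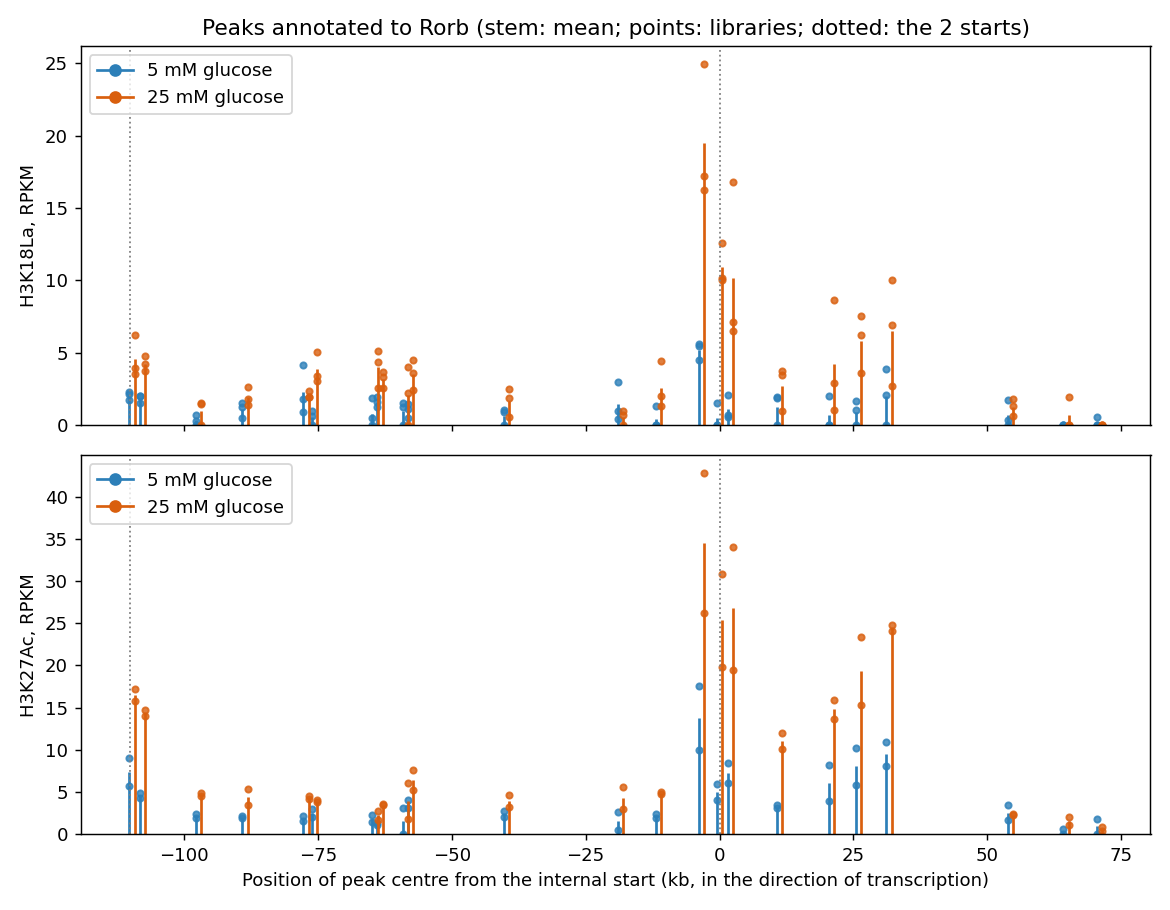
RPKM of the 23 *Rorb* peaks against the distance of each peak centre from the internal start (kb, with the direction of transcription to the right), H3K18La above and H3K27Ac below, at 5 mM (blue) and 25 mM glucose (orange). Stems are group means, points are libraries and dotted lines mark the upstream and internal starts. The highest stem in both panels is the intronic peak with its centre 3.36 kb before the internal start. The peaks with centres from 11.4 to 97.3 kb before that start reach at most 7.58 RPKM in any library.

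In RPKM, the internal promoter went from the weaker to the denser of the promoter peaks as glucose rose, in both marks. At 5 mM the order of the promoter peaks lay within counting error in every library, as the ratios below show. At 5 mM its H3K18La RPKM was 0, 1.52 and 0, from 0, 4 and 0 reads, where 3 reads would have given 2.79, 1.14 and 4.34 RPKM. At 25 mM it was 9.99, 10.1 and 12.6, from 10, 21 and 19 reads, and the groups did not overlap. Summed over libraries these were 4 reads of 8650083 and 50 reads of 8997601, and all 4 reads at 5 mM came from 1 library. H3K27Ac at the same peak was 4.09 and 6.01 RPKM at 5 mM and 30.9 and 19.8 at 25 mM, also without overlap. By limma, the H3K27Ac log2 fold change at this peak was 2.21 ± 0.59 (SE; adjusted p = 0.036), the largest rise among the 21 *Rorb* peaks tested. The upstream promoter peak had 1.69, 2.16 and 2.25 H3K18La RPKM at 5 mM and 6.22, 3.51 and 3.95 at 25 mM. Its H3K27Ac RPKM was 5.77 and 9.02 at 5 mM and 17.2 and 15.8 at 25 mM. Both marks were higher at 25 mM in every library there too, by a ratio of summed reads of 2.06 for H3K18La and of 2.14 (exact 95% counting interval 1.79 to 2.58) for H3K27Ac. Such intervals cover counting error only. The limma log2 fold change in H3K27Ac was 1.14 ± 0.41, which did not pass the threshold (adjusted p = 0.079).

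**Figure D3:**
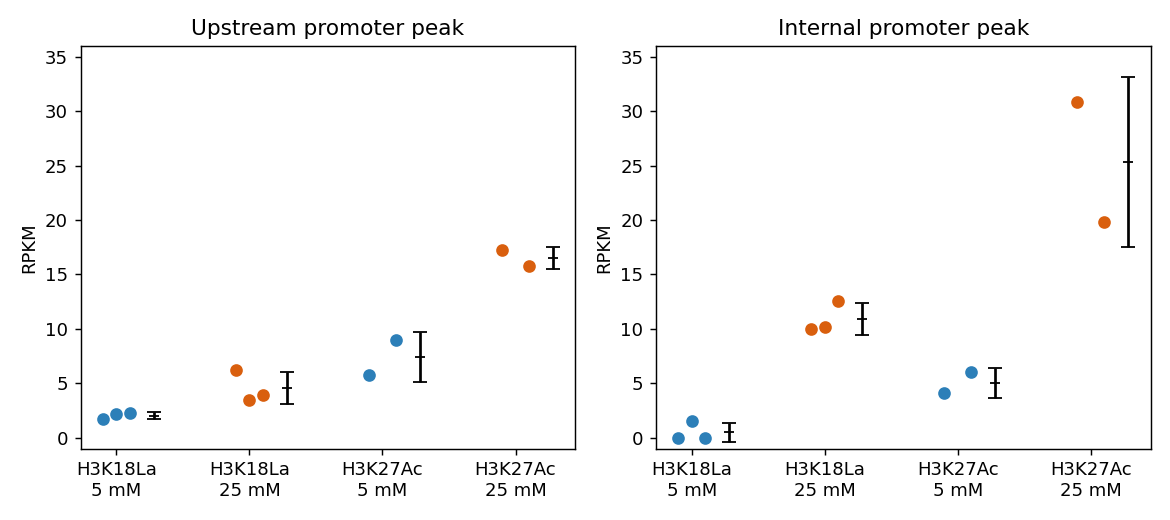
RPKM of the upstream (left) and internal (right) *Rorb* promoter peaks in each library (points), with the mean and SD of each group (3 libraries per H3K18La group, 2 per H3K27Ac group). At 25 mM the internal peak lies at 9.99 to 12.6 in H3K18La and at 19.8 and 30.9 in H3K27Ac, and the upstream peak at 3.51 to 6.22 and at 15.8 and 17.2.

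The ratio of reads per base between the internal and the upstream promoter peak is formed within each library, so no denominator enters it. In H3K27Ac it was 0.708 (exact 95% interval 0.306 to 1.46) and 0.666 (0.386 to 1.09) at 5 mM. At 25 mM it was 1.79 (1.42 to 2.25) and 1.26 (0.956 to 1.64). In H3K18La at 5 mM it was 0.701 (0.176 to 2.06) in replicate 2, and replicates 1 and 3 had no read in the internal peak, with upper bounds of 2.68 and 3.28. At 25 mM it was 1.61 (0.686 to 3.49), 2.89 (1.56 to 5.28) and 3.19 (1.64 to 6.12). The ratio was below 1 in all 5 libraries at 5 mM and above 1 in all 5 at 25 mM. The interval includes 1 in every library at 5 mM. At 25 mM it does so in H3K18La replicate 1 and H3K27Ac replicate 2. This pattern was singled out after its values were seen and rests, for H3K18La, on the change through which the gene was noticed, so no test is given. In reads rather than density the upstream peak held more than the internal one in every library. It is the wider peak, and at 5 mM it was also the denser.

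**Figure D4:**
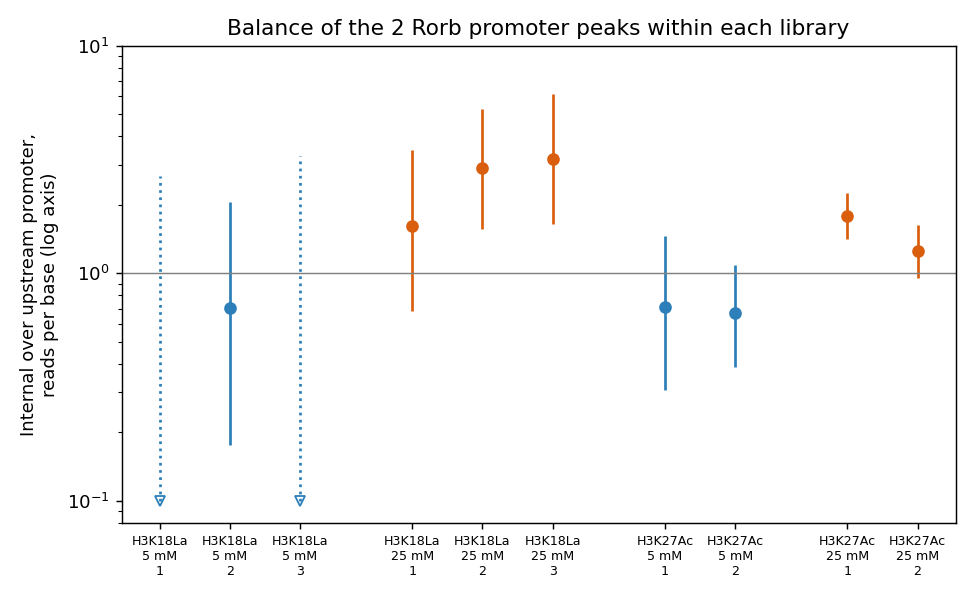
Ratio of reads per base in the internal to those in the upstream *Rorb* promoter peak, 1 point per library on a log axis, with exact 95% counting intervals, at 5 mM (blue) and 25 mM glucose (orange). Open triangles with dotted lines are libraries with no read in the internal peak, drawn from the foot of the axis to their upper bound. The 2 H3K27Ac points move from 0.666 and 0.708 at 5 mM to 1.26 and 1.79 at 25 mM.

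The share of all *Rorb* reads that the promoter peaks held together in H3K27Ac was 24.5% (Wilson 95% interval 19.4% to 30.3%) and 26.4% (22.7% to 30.5%) at 5 mM, and 26.8% (24.5% to 29.3%) and 26.5% (24.1% to 29.2%) at 25 mM. The means, 25.5% ± 1.39 and 26.7% ± 0.200 (SD, n = 2 each), differed by 1.23 points (exact permutation test, two-sided, p = 0.333, adjusted 0.333). The difference depended on the promoter's definition: with the 4 peaks within 2000 bases of a start, the share was 43.9% and 43.2% at 5 mM and 51.8% and 48.8% at 25 mM, a difference of 6.74 points. In H3K18La the share was 17.5% (8.75% to 32.0%), 22.2% (15.6% to 30.6%) and 22.2% (10.6% to 40.8%) at 5 mM, and 21.7%, 19.4% and 23.9% at 25 mM. It was higher in H3K27Ac than in H3K18La by 4.81 points at 5 mM and by 5.03 points at 25 mM, and at each glucose level every H3K27Ac library lay above every H3K18La library. The H3K18La reads entered the choice of the gene, so the difference between marks is a description with no test.

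The intronic peak just after the internal start, chr19:18998739-18999464, lies 1.65 kb from that start in the first intron of the short transcript. Its H3K18La RPKM was 0.653, 0.532 and 2.03 at 5 mM and 16.8, 7.11 and 6.50 at 25 mM, with counts of only 1, 2 and 2 reads at 5 mM. Its H3K27Ac RPKM was 6.05 and 8.43 at 5 mM and 34.1 and 19.5 at 25 mM. By the mean over all libraries of a mark it was among the 3 strongest *Rorb* peaks outside promoters, though not at 5 mM alone in either mark. The limma log2 fold change in H3K27Ac was 1.78 ± 0.54 (adjusted p = 0.049). The strongest intronic peak had 1.30 ± 0.38 (limma, adjusted p = 0.044).

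Further into the gene, the introns after the internal start held 5 more peaks. The one at chr19:18969327-18969696, in the fourth intron of the short transcript and 31.4 kb from the internal start, had 8.13 and 10.9 H3K27Ac RPKM at 5 mM and 24.8 and 24.0 at 25 mM. Its H3K18La RPKM, at 3.84, 2.09 and 0 at 5 mM and 6.87, 2.66 and 10.0 at 25 mM, overlapped between glucose levels. The H3K27Ac log2 fold change was 1.33 ± 0.77 (limma, adjusted p = 0.255). The peak at chr19:18989604-18990335, 10.8 kb from the internal start, had a log2 fold change of 1.61 ± 0.71 that did not pass (limma, adjusted p = 0.138), from 3.48 and 3.08 RPKM to 12.0 and 10.1. H3K18La there was 1.94, 1.85 and 0 at 5 mM and 3.47, 3.70 and 0.921 at 25 mM, with overlap. The last of these peaks, chr19:18946558-18947119, 54.0 kb from the internal start in the ninth intron, was the only tested *Rorb* peak with a fitted H3K27Ac value below 0. It had 1.65 and 3.44 RPKM at 5 mM and 2.23 and 2.40 at 25 mM, a log2 fold change of -0.05 ± 0.68 (limma, adjusted p = 0.969). Both remaining peaks of these introns were higher in H3K27Ac at 25 mM in every library, with log2 fold changes of 1.23 and 1.30 that did not pass the threshold.

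Between the starts, 13 intronic peaks lie over 110.1 kb. Apart from the strongest one and the one beside the upstream promoter, their mean H3K27Ac RPKM ran from 1.24 to 3.55 at 5 mM and from 2.25 to 6.43 at 25 mM. The peak beside the upstream promoter, chr19:19108071-19109516, is 1.68 kb from the upstream start and had 4.32 and 4.90 H3K27Ac RPKM at 5 mM and 14.7 and 14.1 at 25 mM. Its H3K18La RPKM was 1.97, 2.00 and 1.53 at 5 mM and 4.22, 4.76 and 3.73 at 25 mM. It is named because it was 1 of the 4 *Rorb* peaks that passed the test for H3K27Ac (limma log2 fold change 1.55 ± 0.38, adjusted p = 0.032), after its values were seen. The 3' UTR peak, chr19:18936331-18936593, and the intergenic peak beyond the gene's end, chr19:18930089-18930435, held at most 4 reads in any library. They were the 2 *Rorb* peaks whose mean RPKM over the 10 libraries was below 1, and they were not tested. The intergenic peak had no H3K18La read in any library at 25 mM, where the limit of 3 reads applies, and the 3' UTR peak had none at 5 mM.

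Counted over all members, H3K27Ac at 25 mM was above 5 mM without overlap at 19 of the 23 *Rorb* peaks, with 4 overlapping and 0 lower, where the same held for 53.0% of all peaks. The limma test called 4 of the 21 tested *Rorb* peaks, all higher at 25 mM, against 10.1% of the 72467 peaks tested. The 4 were the internal promoter, the intronic peak on either side of it, and the peak beside the upstream promoter. The median log2 fold change of the tested *Rorb* peaks was 1.20, against 0.83 over all peaks tested. Per read in peaks these medians were 0.01 and -0.20, and with median centring 0.51 and 0.14. Without replicate 1 at 5 mM, replicate 1 at 25 mM or replicate 2 at 25 mM, where limma takes the lone library to vary like the other groups, 0 of all 72467 peaks passed and so 0 *Rorb* peaks (4, 2 and 5 had an unadjusted p under 0.05). The log2 fold change at the internal promoter was then 1.96, 1.90 and 2.52, and the median of the tested *Rorb* peaks 0.86, 1.07 and 1.18. Without replicate 2 at 5 mM, 3 *Rorb* peaks passed, where 12.5% of all peaks tested were higher. With voom on the recovered reads 8 of 21 passed, where 36.8% of all peaks tested were higher. Per read in peaks 0 of all 72467 passed, and 0 *Rorb* peaks had an unadjusted p under 0.05, and the limma log2 fold change was 0.97 ± 0.79 at the internal promoter, 0.54 ± 0.54 at the intronic peak after it, 0.05 ± 0.25 at the strongest intronic peak, 0.33 ± 0.33 beside the upstream promoter and -0.08 ± 0.32 at the upstream promoter (each with adjusted p = 1.000). In H3K18La, 11 of the 23 peaks were higher at 25 mM without overlap and 12 overlapped, where 36.6% of all peaks were higher. The gene was noticed through these values, which are not read further. The log2 fold changes ran from -0.78 to 3.83.

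Counted per read in peaks, 4 *Rorb* peaks of 23 were higher at 25 mM without overlap in H3K27Ac (12.2% of all peaks) and 5 were lower (37.1% of all peaks). In H3K18La 4 were higher (6.35% of all peaks) and 2 lower (9.82%). The internal promoter and the intronic peak after it were higher in both marks, making 2 of the 4 in each. For the internal promoter the H3K27Ac values were 0.985 and 0.970 reads per 100000 reads in peaks at 5 mM and 2.26 and 1.79 at 25 mM. Its H3K18La values were 0, 0.649 and 0 at 5 mM and 1.46, 1.63 and 2.06 at 25 mM. The upstream promoter had 5.36 and 5.62 in H3K27Ac at 5 mM and 4.86 and 5.49 at 25 mM. Its H3K18La values were 2.76, 3.57 and 3.74 at 5 mM and 3.49, 2.18 and 2.49 at 25 mM. On this scale the upstream promoter overlapped between glucose levels in both marks.

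**Figure D5:**
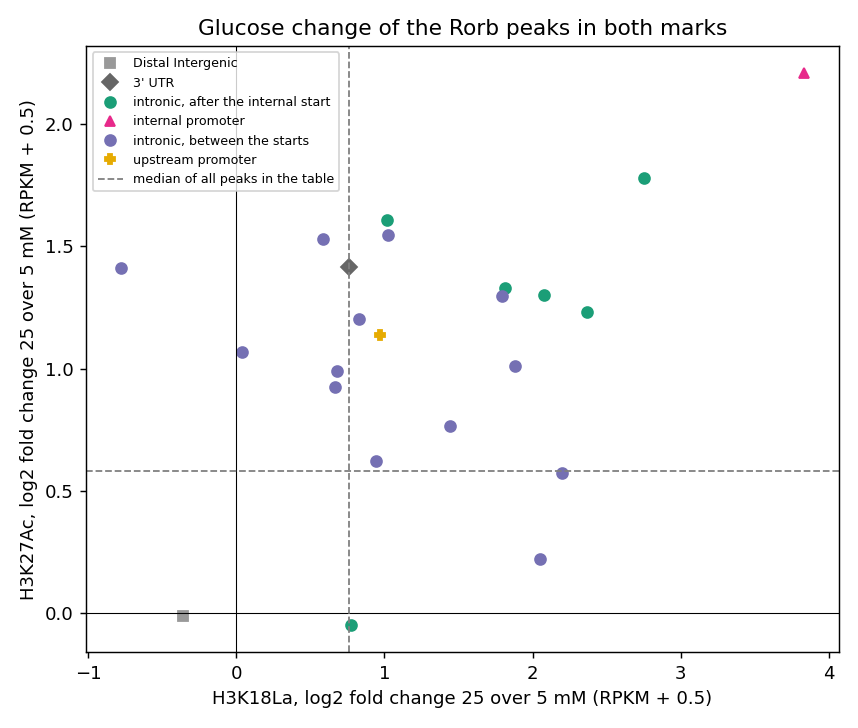
Log2 fold change from 5 to 25 mM glucose in H3K18La (horizontal) and H3K27Ac (vertical), on the scale of RPKM + 0.5, for the 23 *Rorb* peaks marked by their place in the gene. Dashed lines are the medians over all 108253 peaks, 0.76 and 0.58. The internal promoter lies at the upper right, at 3.83 and 2.21, and the intergenic peak at the lower left.

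The values of the marks at the *Rorb* peaks are set side by side here. Antibodies differ in yield, and this cannot be told apart from the amount of each mark. At 5 mM, H3K27Ac was above H3K18La without overlap at 15 of 23 peaks (35.1% of all peaks), and at 25 mM at 18 (35.1% of all peaks), with none lower. The H3K18La values of the gene entered its choice, so the comparison between marks is a description with no test, and nothing is read from its counts. The upstream promoter had log2 differences of 1.62 ± 0.37 at 5 mM and 1.78 ± 0.37 at 25 mM (SE of the limma fit). The strongest intronic peak had 1.29 ± 0.34 at 5 mM and 0.79 ± 0.34 at 25 mM. For the intronic peak after the internal start the differences were 2.41 ± 0.49 and 1.43 ± 0.49. The median difference over the 20 peaks fitted, without the internal promoter, was 1.49 at 5 mM and 1.13 at 25 mM, and per read in peaks it was 0.75 and 0.30. Across the 23 peaks the group means of the marks had Pearson's r of 0.699 and a Spearman's rank correlation of 0.375 at 5 mM, and 0.895 and 0.788 at 25 mM. These are descriptions over peaks of 1 gene, which share libraries and depth, and 5 mM H3K18La counts were low.

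Among related genes, the highest promoter peak of each was taken. Of the 15 used, 13 had one and 11 were tested. H3K27Ac was called higher at 25 mM for 10 by limma and lower for 0, where 20.0% of the highest promoter peaks of all genes were higher. With reads in peaks as the denominator, and with median centring, 0 of all 72467 peaks passed the limma threshold, so none of the 10 was called. The paralog *Rora* had 5.80 and 8.51 H3K27Ac RPKM at 5 mM and 21.8 and 39.8 at 25 mM (limma log2 fold change 1.99 ± 0.47, adjusted p = 0.030). Its H3K18La lay between 0.660 and 2.16 at 5 mM and between 5.84 and 8.66 at 25 mM. *Nrl*, the rod determinant downstream of RORβ, had 2.25 ± 0.48 and *Crx*, which sets photoreceptor identity, had 2.40 ± 0.49 (limma, adjusted p = 0.030 for each). *Opn1sw*, the S-opsin gene that RORβ activates, had at most 1.70 RPKM in any library and was not tested. Of regulators of other neurons, *Foxn4* was not tested and *Ptf1a* and *Isl1* had no promoter peak in the set. Per read in peaks, 10 of the 13 kept an H3K27Ac ratio above 1, with *Rxrg*, *Foxn4* and *Opn1sw* below it, and 8 of the 13 an H3K18La ratio above 1. Over the highest promoter peaks of all 14562 genes these shares were 52.1% and 39.6%.

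The loci most like *Rorb* in summed reads over the 10 libraries, among the 2454 genes with at least 10 peaks and after subtracting each library's median gene, were *Rara* (Pearson's r = 0.995), *Myh10* (0.995), *Lpcat1* (0.994), *Ahdc1* (0.993) and *Prrc2b* (0.992). *Rara* encodes the retinoic acid receptor alpha and *Myh10* a non-muscle myosin heavy chain. All loci share the libraries, and the difference between marks and glucose levels enters every r, so the values serve as a description.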

How the data were processed

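CUT&Tag for H3K18La and H3K27Ac was measured in 10 libraries of mouse retinal explants. The authors aligned reads to GRCm38 with nf-core/cutandrun, called MACS peaks and kept those seen in at least 2 biological replicates of a group. They counted reads in merged peaks with csaw and annotated peaks with ChIPseeker 1.34.1 (promoter from -1000 to +500 bases of a start). The quantified set has as many peaks as the one merged from H3K18La of uncultured retina at several ages. The study states that its principal component analysis of explants used merged consensus peaks of H3K18La and H3K27Ac. Whether the deposited values are over those peaks is not stated. The values deposited by the authors are RPKM per peak and library. A second deposited table holds the authors' edgeR 3.40.2 comparisons (fold changes and adjusted p-values) and was not used. Transcript coordinates in the file matched GENCODE M21 on GRCm38 for 99.7% of 32058 shared transcripts.

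Reads were recovered from RPKM times peak width (tolerance 0.01 reads, 100% whole). The main test was limma 3.58.1 in R 4.3.3 with a trended prior on log2(RPKM + 0.5), fitted to all 10 libraries in 4 groups over peaks with a mean of at least 1 RPKM, with Benjamini-Hochberg adjustment and a threshold of 0.05. Fold changes on this scale understate changes at low peaks. Locus sums and promoter shares, which are single values, were compared between glucose levels in H3K27Ac by exact permutation tests of the absolute difference in means (scipy 1.17.1). Intervals are at 95%. The peaks named were all promoter peaks, the 3 highest others in each mark, and the 3 largest rises and falls in H3K27Ac, and motifs were searched in the central 300 bases. Members, lists and tests were chosen with earlier results of these data known. Alternatives covered pseudocount, filter, scaling, fitted groups, threshold, model and left-out libraries. Samples with the same replicate number did not deviate together (correlations of -0.016 to 0.193 over 13 pairs, 1 above 0.1), so numbers were not taken as pairs. The planned edgeR test was not run on the deposited RPKM, and voom on the recovered reads was added in its place after the data were seen. The planned tests between marks were left out and the values given as descriptions, since the H3K18La values entered the choice of the gene. Depth ran from 1358008 to 7424470 reads per library, by the RPKM denominator. Some genes of the lists are not reported here and were left out of the list counts.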

Additional observations from a re-analysis of the deposited data

How the results depend on the processing

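Depth limited the peaks with few reads: H3K18La libraries at 5 mM held 27 to 117 reads over the whole locus, and groups of 2 libraries cannot bring an exact test below 0.333. Of the 21 tested *Rorb* peaks, 4 passed for H3K27Ac by glucose. This became 0 with a pseudocount of 0.1, without the filter, with median centring, with reads in peaks as the denominator and at an adjusted p of 0.01. It became 12 with only the groups compared (33.5% of all peaks) and 8 with voom on recovered reads (36.8% of all peaks), and ranged from 0 to 3 without single libraries. The other planned settings stayed within 1.5 times the count. With a pseudocount of 1, 5 passed (20.4% of all peaks), and with a minimum mean of 2 RPKM 5 of 16 passed (28.2%). With a robust prior 4 passed (10.8%). The median log2 difference between marks over 20 peaks was 1.49 at 5 mM and moved by more than the spread between libraries to 2.08 with a pseudocount of 0.1, 0.82 with median centring and 0.75 with reads in peaks. At 25 mM it was 1.13 and moved to 1.44 and 0.93 with pseudocounts of 0.1 and 1, 1.02 with a minimum mean of 2 RPKM, 0.65 with median centring and 0.30 with reads in peaks. Without single libraries it ranged from 1.29 to 1.65 at 5 mM and from 1.10 to 1.36 at 25 mM. With reads in peaks the median H3K27Ac change by glucose over all tested peaks moved from 0.83 to -0.20. With reads in peaks, the fitted glucose change turned from positive to negative at 9 of the 21 tested *Rorb* peaks (-0.72 to -0.02), the upstream promoter (-0.082) among them, and with median centring at 3. The difference between marks at the strongest intronic peak at 25 mM turned to -0.13 with reads in peaks, and the glucose change at the ninth-intron peak ranged from -0.49 to 0.39 without single libraries. The H3K18La log2 ratio of the locus, 1.71, moved to 0.25 with reads in peaks and to 1.28 as a mean of log2 values over peaks, and ranged from 1.57 to 1.79 without single libraries. The promoter share kept its direction in every setting run, and its H3K27Ac difference by glucose, 1.23 points, ranged from 0.25 to 2.21 without single libraries and was 6.74 with promoters extended to 2000 bases, where the difference between marks at 25 mM moved from 5.03 to 8.84 points. The numbers do not pair the samples. With the replicate number as a block 3 *Rorb* peaks passed for H3K27Ac by glucose, where 9.30% of all peaks tested were higher. The intronic peaks before and after the internal start then did not pass (limma, adjusted p = 0.0607 and 0.0502). The peak at chr19:18989604-18990335 then passed (limma, adjusted p = 0.044). The median differences between marks with this block were 1.29 and 1.10. Wherever a cause is not given by the setting itself, the cause was not tested. The edgeR test was not run, and voom on the recovered reads took its place.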
